A study of Mus musculus with 30 samples.

Results

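Gene expression was compared between spinal cord microglia of mice with a partial injury of the sciatic nerve and microglia of naive mice. The 8 libraries used were 6 from injured mice and 2 from naive mice, out of 30 in the whole series, and they were chosen by their labels. The injured groups were chronic constriction injury at 2 days post injury (CCI_2dpi, 2 libraries), the same injury at 7 days (CCI_7dpi, 2 libraries) and spared nerve injury at 7 days (SNI_7dpi, 2 libraries). The naive group (2 libraries) came from mice with neither treatment nor injury. All mice were C57BL/6J, and no age, sex or side of the cord was used here. No sham-operated group was analysed here, so surgery itself and nerve injury cannot be told apart. The 7 saline-injected control libraries of the series did not enter the comparison, and their values are given beside some results. The cells were taken from the caudal lumbar cord and selected for CD11b, an integrin that neutrophils and monocytes also carry. The labels do not say that each library came from its own mouse, so p-values reflect only how these libraries scatter.

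Microglia are macrophages that live in the brain and spinal cord. In chronic constriction injury the sciatic nerve is loosely tied, and in spared nerve injury some of its terminal branches are cut while the sural branch is left intact. Both are standard models of neuropathic pain in which microglia in the dorsal horn of the lumbar cord divide, change shape and release mediators, among them chemokines and growth factors. The cord itself is not cut, so the microglia respond to signals from damaged sensory and motor neurons. The question put to the data was what the 3 injury groups shared relative to uninjured mice.

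Expression is given as FPKM (fragment counts divided by transcript length and by the mapped total of a library), and differences are on the scale of log2(FPKM + 1), which understates the change of genes with low values. A gene was tested where 2 or more of the 8 libraries had 1 FPKM or more, which left 10501 genes. Read counts are not in the files and depth is unknown. A relative floor of detection (the 5th percentile of nonzero FPKM times transcript length in kilobases), which falls as depth rises, was 0.0933 to 0.215 in the injured libraries, 0.269 in naive replicate 1 and 0.0977 in naive replicate 2. The injured libraries had 9655 to 10219 genes at 1 FPKM or more, against 9536 in naive replicate 1, the fewest of the 8, and 10068 in naive replicate 2. The libraries did not sort by group. None of the 8 had its own group partner as the most similar of the other 29 libraries. CCI_2dpi replicate 1 was closest to a library of another injury, SNT_7dpi replicate 2 (sciatic nerve transection; Pearson r across genes 0.988), and had r = 0.936 with its own partner. CCI_2dpi replicate 2 was closest to CCI_7dpi replicate 1 (r = 0.972). CCI_7dpi replicate 2 and SNI_7dpi replicate 1 were closest to naive replicate 2 (r = 0.977 and 0.980), and SNI_7dpi replicate 2 to naive replicate 1 (r = 0.965). Correlations within a group were 0.936 to 0.963 and those between injured and naive libraries 0.919 to 0.980. Genes are not independent replicates, so these values only describe the libraries.

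Microglial identity genes were abundant in all 8 libraries. Csf1r, the receptor on which microglial survival depends, had 2010 to 3380 FPKM in injured and 2547 and 2232 in naive libraries. P2ry12, the purinergic receptor that steers microglial processes, had 684 to 1550 FPKM in injured and 1441 and 1070 in naive libraries. Tmem119 had 840 to 1417 FPKM in injured and 1044 and 994 in naive, and the transcription factor gene Sall1 had 63.6 to 86.4 FPKM in injured and 54.1 and 71.2 in naive. For these 4 genes the injured and naive ranges overlapped.

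Across the 3 injuries, the clearest separations were higher Evi2b, Mmp2, Pdcd1, Cd180 and Ccl2 and lower Sult1a1, Tsc22d3, Fkbp5, Ddit4 and Ms4a6b. Every injured library lay on the same side of both naive libraries, which the rule for naming these genes required. None of these differences passed the test. With each of the 4 groups given its own mean, the joint difference (the mean of the 3 injury means minus the naive mean) had 0 of 10501 genes at an adjusted p under 0.05 (limma, Benjamini-Hochberg adjustment over all genes; 0% called). Without adjustment, 192 genes had p under 0.05 (1.83%), fewer than the 525 that chance alone would give. The lowest adjusted p belonged to Tmod1, the gene of an actin-capping protein, which is named because its p was lowest and lies outside the rule for named genes. Tmod1 was listed at 0 in all 6 injured libraries, against 3.34 and 1.92 FPKM in naive (adjusted p = 0.526, limma). Of the genes tested, 255 were higher in all 6 injured than in both naive libraries (2.43%), and 103 were lower in all 6 (0.981%). That split depended on scaling. It was 212 higher and 237 lower with median-ratio scaling and 231 and 270 with quantile normalization. On a common sum it was 133 and 239. With 6 libraries against 2, some genes separate fully by chance alone. That number was not counted, so neither 255 nor 103 is read as an excess over chance. In simulated data for this comparison, with 10501 genes, the fit recovered 83 of 100 genes changed by 2 log2 units. It recovered 32 of 100 changed by 1, with 7 false calls. These rates belong to the simulated setting. The real libraries gave fewer low p-values than chance alone would, so recovery in them may differ. The median SE of the joint difference was 0.26.

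**Figure D1:**
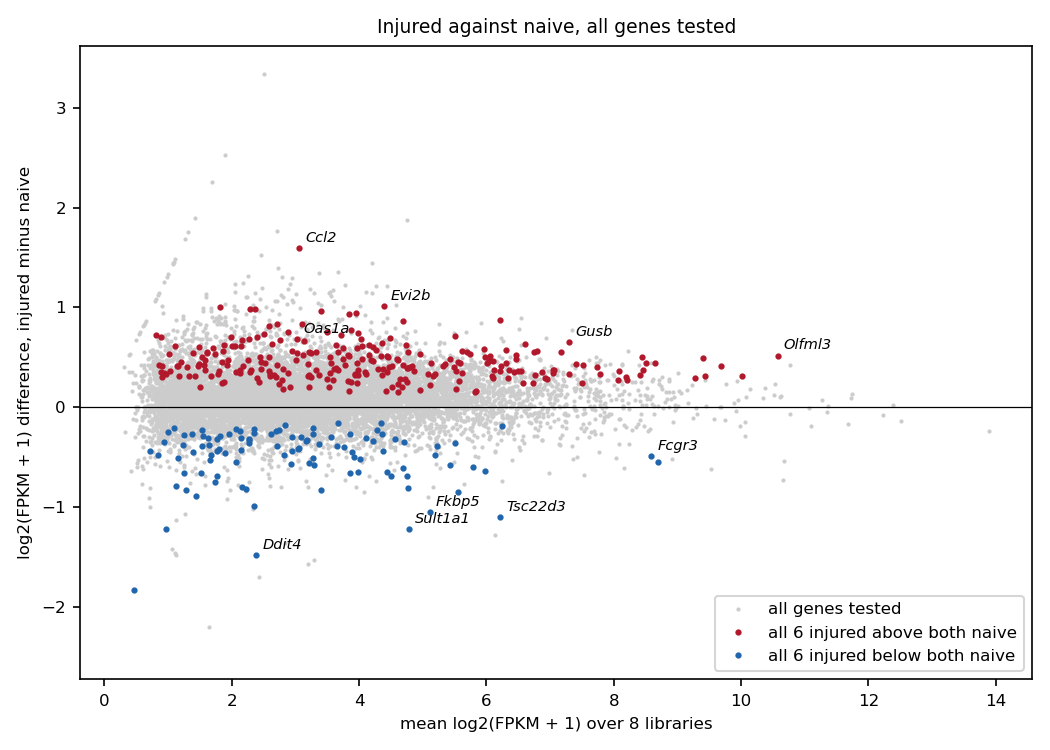
Joint difference in log2(FPKM + 1), injured minus naive (vertical axis), against mean log2(FPKM + 1) over the 8 libraries (horizontal axis) for the 10501 genes tested. Red points are the 255 genes with all 6 injured libraries above both naive libraries, and blue points the 103 with all 6 below. The grey cloud lies slightly above 0, with a median of 0.11.

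Over all genes tested the median joint difference was 0.11 and 68.1% of genes had a positive difference. Median-ratio scaling moved that median to -0.0019. The shift was not shared by the injuries: the median was 0.15 in CCI_2dpi, 0.16 in CCI_7dpi and -0.0028 in SNI_7dpi. Leaving out naive replicate 1 brought it to 0.0015, and leaving out naive replicate 2 brought it to 0.24. List medians are to be read against 0.11. All lists were written with earlier results of these data known, so the shares of their members that stood apart are no independent support. With median-ratio scaling the medians turned negative for the homeostatic, damage-associated, neuropathic pain, complement, ribosomal protein, circadian clock and splicing lists (-0.03, -0.12, -0.0015, -0.09, -0.0072, -0.03 and -0.01), and no other list of a process changed sign under it.

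The 15 genes with the lowest p among those higher in all 6 injured libraries, at a mean of at least 5 FPKM, included surface receptors, secreted proteins and lysosomal and interferon-linked genes. All 15 had an adjusted p of 0.999 (limma). Evi2b, a membrane protein gene of blood-lineage cells, had 23.1 and 28.0 FPKM in CCI_2dpi, 37.7 and 24.4 in CCI_7dpi and 17.9 and 18.1 in SNI_7dpi, against 11.3 and 11.6 in naive libraries. The SNI libraries were the lowest of the injured, and the joint difference was 1.01 ± 0.22 (SE). Mmp2, which encodes the matrix-degrading gelatinase A, had 13.3 and 14.2 FPKM in CCI_2dpi, 16.4 and 21.2 in CCI_7dpi and 14.5 and 16.5 in SNI_7dpi, against 8.72 and 6.98 in naive libraries. The joint difference was 0.93 ± 0.21. Pdcd1, the gene of the inhibitory receptor PD-1, had 12.3 and 19.5 FPKM in CCI_2dpi, 24.7 and 20.6 in CCI_7dpi and 15.4 and 14.1 in SNI_7dpi, against 8.76 and 8.23 in naive libraries (0.95 ± 0.23). Cd180, a relative of the Toll-like receptors that modulates their signalling, had 24.7 and 35.6 FPKM in CCI_2dpi, 33.6 and 34.6 in CCI_7dpi and 25.3 and 23.4 in SNI_7dpi, against 14.1 and 17.2 in naive libraries (0.86 ± 0.21).

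Ccl2, the chemokine that draws monocytes through CCR2, had 23.3 and 10.9 FPKM in CCI_2dpi, 16.2 and 6.17 in CCI_7dpi and 5.53 and 6.47 in SNI_7dpi, against 1.70 and 3.88 in naive libraries. The joint difference of 1.60 ± 0.40 was the largest of the 15, and the CCI_2dpi libraries were among the highest. Gusb, the lysosomal beta-glucuronidase gene, had a lowest, median and highest injured value of 127, 184 and 232 FPKM, against 100 and 123 in naive libraries (0.65 ± 0.20). Sdc3, a cell-surface heparan sulphate proteoglycan gene, had 33.8, 49.0 and 66.6 FPKM in injured and 30.5 and 30.3 in naive libraries (0.71 ± 0.23). For both genes the lowest injured library, SNI_7dpi replicate 1, lay close to the naive values. Rspo1, a secreted enhancer of Wnt signalling, had 2.54, 4.76 and 7.66 FPKM in injured and 1.87 and 1.95 in naive libraries (0.99 ± 0.27). Kcnk12, a potassium channel subunit gene, had 9.04, 11.5 and 14.7 FPKM in injured and 3.75 and 7.57 in naive libraries (0.97 ± 0.28). The other members of the 15 were Klrg2, 2310039H08Rik, Oas1a, Wscd1, Tap1 and Klhl6, with joint differences from 0.58 (Klhl6) to 0.98 (Klrg2).

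**Figure D2:**
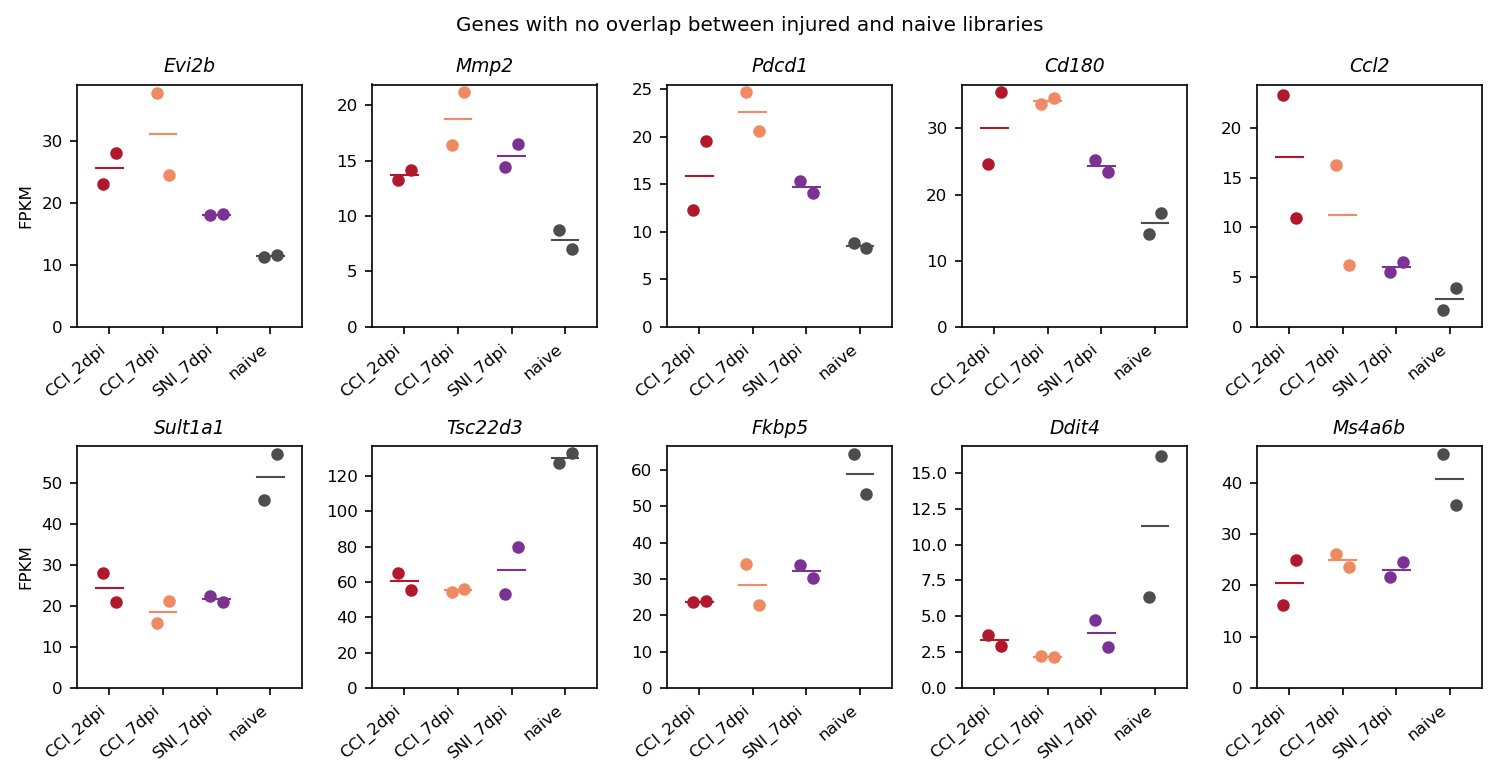
FPKM (vertical axis, linear from 0) in each of the 8 libraries for 10 genes, with groups on the horizontal axis. Points are libraries and short lines are the means of the 2 libraries of a group. In the upper row all 6 injured libraries lie above both naive libraries, and in the lower row all 6 lie below both.

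Among the genes lower in all 6 injured libraries, those with the lowest p included 4 genes known to be induced by glucocorticoids. Sult1a1, which encodes a phenol sulphotransferase, had 28.0 and 21.0 FPKM in CCI_2dpi, 15.8 and 21.3 in CCI_7dpi and 22.3 and 20.9 in SNI_7dpi, against 45.7 and 56.9 in naive libraries. The joint difference was -1.22 ± 0.22 (adjusted p = 0.927, limma), and the other 14 genes named on this side had an adjusted p of 0.999. Tsc22d3, the glucocorticoid-induced leucine zipper gene, had 65.3 and 55.3 FPKM in CCI_2dpi, 54.4 and 56.3 in CCI_7dpi and 53.2 and 80.0 in SNI_7dpi, against 127 and 133 in naive libraries (-1.10 ± 0.21). Fkbp5, a co-chaperone that dampens the glucocorticoid receptor, had 23.7 and 23.9 FPKM in CCI_2dpi, 34.1 and 22.9 in CCI_7dpi and 33.9 and 30.3 in SNI_7dpi, against 64.5 and 53.3 in naive libraries (-1.05 ± 0.21). For these 3 genes the 6 injured libraries lay close together and the gap to naive was wide. Ddit4, an inhibitor of the growth kinase mTORC1, had 3.73 and 2.96 FPKM in CCI_2dpi, 2.23 and 2.14 in CCI_7dpi and 4.76 and 2.88 in SNI_7dpi, against 6.37 and 16.2 in naive libraries. Its joint difference of -1.48 ± 0.33 rested on naive libraries that themselves differed widely.

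A family of membrane-spanning proteins stood on the same side. Ms4a6b had 16.1, 24.1 and 26.2 FPKM as the lowest, median and highest injured value, against 45.7 and 35.6 in naive libraries (-0.81 ± 0.23). Ms4a6d had 41.4, 57.6 and 69.6 FPKM in injured and 89.7 and 84.3 in naive libraries (-0.64 ± 0.19), and Ms4a6c had 13.9, 18.5 and 25.1 FPKM in injured and 27.4 and 31.8 in naive libraries (-0.65 ± 0.25). These 3 genes are close paralogs, so reads may have been split among them. Spp1, which encodes osteopontin, a marker of many activated microglial states, had 5.43, 8.31 and 11.4 FPKM in injured and 13.2 and 17.7 in naive libraries (-0.84 ± 0.30). The rest of the 15 were Jun, Notch4, B3galnt1, Rcan1, Ppp1r21, Mthfsl and 4632427E13Rik, with joint differences from -0.61 (Ppp1r21) to -0.85 (Jun).

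The 7 saline libraries show which of these genes also stood apart from other uninjured mice. Of the 15 named higher genes, 7 were above all 7 saline libraries in all 6 injured libraries: Mmp2, Pdcd1, Cd180, Klrg2, Gusb, Sdc3 and Klhl6. Mmp2 was at 13.3 to 21.2 FPKM in injured libraries, against 8.72 and 6.98 in naive and 2.65 to 6.30 in saline libraries. For 3 of the 7 (Mmp2, Gusb and Sdc3) both naive libraries were themselves above all 7 saline libraries. Of the 15 named lower genes, 3 were below all 7 saline libraries: Sult1a1, Ms4a6b and Mthfsl. Sult1a1 was at 15.8 to 28.0 FPKM in injured and at 52.6 to 129 in saline libraries. Another 7 of the lower genes were higher in both naive libraries than in any saline library, while injured and saline ranges overlapped: Tsc22d3, Fkbp5, Ms4a6d, Jun, Notch4, Rcan1 and Ppp1r21. Fkbp5 was at 22.9 to 34.1 FPKM in injured libraries and at 4.03 to 30.3 in saline libraries, against 64.5 and 53.3 in naive. Among all genes that did not overlap naive, 53 of the 255 higher (20.8%) and 13 of the 103 lower (12.6%) were also beyond all 7 saline libraries on the same side. The share of all genes tested that lay beyond all 7 saline libraries was not counted. These counts therefore have no background to be read against. Saline and naive libraries were far apart in single abundant genes. Cst3, the gene of the protease inhibitor cystatin C, had 10120 to 20827 FPKM in injured libraries, 17341 and 16975 in naive and 40841 to 65263 in saline libraries. Lars2, whose product charges mitochondrial tRNA with leucine, had 1040 to 5148 FPKM in injured libraries, 3202 and 2163 in naive and 26.1 to 278 in saline libraries. In both genes the injured and naive ranges overlapped.

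**Figure D3:**
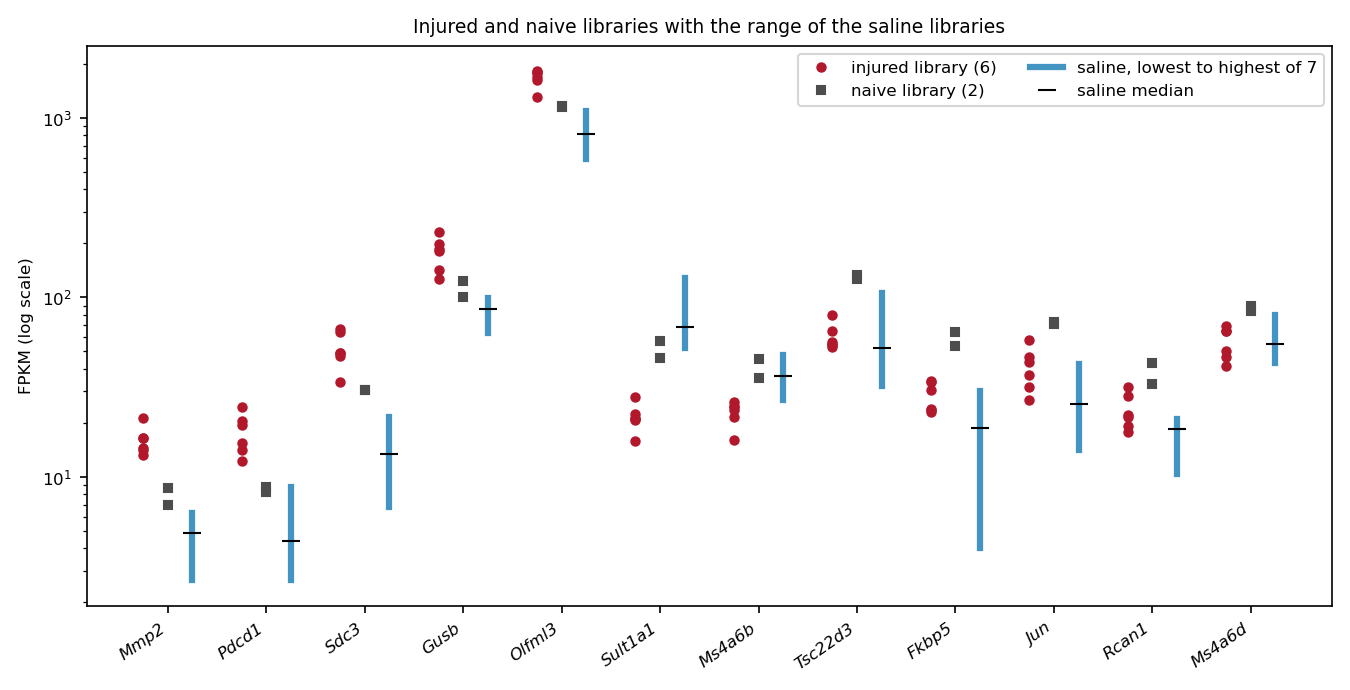
FPKM on a log scale (vertical axis) of 12 genes (horizontal axis) in the 6 injured libraries (circles), the 2 naive libraries (squares) and the 7 saline libraries (bar from lowest to highest, tick at the median). Mmp2, Pdcd1, Sdc3, Gusb and Olfml3 in injured libraries lie above the saline bar and Sult1a1 and Ms4a6b below it, while Tsc22d3, Fkbp5, Jun, Rcan1 and Ms4a6d in naive libraries lie above both.

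When all 9 control libraries were pooled as 1 group, 1267 genes passed the test (12.1%, limma, adjusted p under 0.05). Of these, 1032 were higher and 235 lower in injured libraries. Against naive alone no gene passed at all, so none of the 1267 could be among genes called there. The median size of their difference was 1.01 against the 9 controls, the comparison that chose them, and 0.28 against naive, where all genes tested had 0.33 and 0.18. Of the 15 named genes on each side, the direction turned for Fkbp5 (0.50 against the 9 controls), Jun (0.34), Rcan1 (0.14), Ppp1r21 (0.040) and 2310039H08Rik (-0.19). Medians of the process lists changed sign against the 9 controls for antigen presentation (-0.12), chemokines (-0.51), oxidative phosphorylation (-0.17), ribosomal protein (-0.22), splicing (-0.06), Fc and pattern recognition receptor (0.06) and immediate early genes (0.06), where the median of all genes was 0.16.

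Genes of the type I interferon response stood higher in CCI_7dpi and SNI_7dpi and close to naive in CCI_2dpi. Interferons alert cells to virus and to misplaced nucleic acid through transcription factors that bind a short element in the promoters of antiviral genes. Of 34 listed genes tested, 31 had a positive joint difference (91.2% against 68.1% of all genes), the median was 0.32, and 7 were higher in all 6 injured than in both naive libraries, where 2.43% of all genes were. None was called. Among the 7 were Cxcl10, Oas1a, Usp18, Ifit1, Bst2 and Parp9. The list median was 0.02 in CCI_2dpi, 0.34 in CCI_7dpi and 0.56 in SNI_7dpi, and the mean log2(FPKM + 1) over the list was above both naive libraries in 5 of 6 injured libraries and below both in CCI_2dpi replicate 2. Oas1a, an interferon-induced sensor of double-stranded RNA, had 6.76 and 6.61 FPKM in CCI_2dpi, 8.29 and 8.67 in CCI_7dpi and 9.58 and 9.43 in SNI_7dpi, against 3.93 and 5.62 in naive libraries (0.68 ± 0.22). Usp18, which removes ISG15 from proteins and restrains the interferon receptor, had 6.68 and 6.56 FPKM in CCI_2dpi, 6.05 and 7.35 in CCI_7dpi and 8.33 and 10.4 in SNI_7dpi, against 5.03 and 4.43 in naive libraries (0.56 ± 0.21). For both genes the SNI libraries were the highest. Isg15, the ubiquitin-like modifier itself, had 3.67 and 3.64 FPKM in CCI_2dpi, 5.69 and 8.84 in CCI_7dpi and 9.26 and 6.16 in SNI_7dpi, against 3.93 and 3.35 in naive libraries, so its groups overlapped through CCI_2dpi.

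The promoters of Oas1a and Isg15 are shown because they hold matches to the element through which interferon acts. Each sequence is the 250 bases before the gene start (RefSeq, GRCm38.p6), read on the gene's own strand, with matches to the core of the interferon-stimulated response element (GAAA, any 2 bases, GAAA) in capitals, and both strands were searched. Oas1a lies on the minus strand (chr5:120907526-120907775) and holds 2 overlapping matches, and Isg15 lies on the minus strand (chr4:156200819-156201068) and holds 3 overlapping matches.
Oas1a: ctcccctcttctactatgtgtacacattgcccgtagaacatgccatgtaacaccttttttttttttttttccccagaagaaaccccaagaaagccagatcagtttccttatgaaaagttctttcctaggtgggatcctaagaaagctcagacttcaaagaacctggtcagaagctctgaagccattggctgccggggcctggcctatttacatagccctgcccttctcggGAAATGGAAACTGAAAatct
Isg15: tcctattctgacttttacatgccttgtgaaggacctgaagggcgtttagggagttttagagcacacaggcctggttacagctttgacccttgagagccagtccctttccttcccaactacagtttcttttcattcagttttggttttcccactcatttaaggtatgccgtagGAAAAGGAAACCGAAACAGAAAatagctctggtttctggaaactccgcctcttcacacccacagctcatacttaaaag
Of the 34 listed genes, 22 had a promoter in the reference table, and 11 of these held the motif. The motif was present in 3.04% of 27025 promoters of the same length and in 2.75% of the 8136 promoters of tested genes. A match describes letters in the window and is no measure of binding.

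Antigen presentation genes, which load peptides on MHC molecules, had a median of 0.20 over 24 tested, with 19 positive (79.2%, against 68.1% of all genes) and 3 higher in all 6 injured libraries (12.5%, against 2.43% of all genes). Tap1, which carries peptides into the endoplasmic reticulum, had 20.1, 24.4 and 29.6 FPKM as the lowest, median and highest injured value, against 12.3 and 17.3 in naive libraries (0.70 ± 0.23). Psmb9, an interferon-induced proteasome subunit gene, had 19.4 and 25.2 FPKM in CCI_2dpi, 28.3 and 23.8 in CCI_7dpi and 28.4 and 30.3 in SNI_7dpi, against 18.0 and 18.5 in naive libraries (0.47 ± 0.20). The saline libraries, at 34.0 to 77.9 FPKM of Psmb9, were all above the injured ones, and the difference was -0.47 against the 9 controls. The third was H2-DMa, which helps load MHC class II and averaged 139 FPKM in injured and 109 FPKM in naive libraries, and turned to -0.20 against the 9 controls. The list median was 0.09 in CCI_2dpi, 0.05 in CCI_7dpi and 0.29 in SNI_7dpi.

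Cell cycle genes had the highest list medians and varied widely between libraries. Proliferation of microglia in the lumbar cord is a well-known feature of peripheral nerve injury. DNA replication genes had a median joint difference of 0.76, with 37 of 39 tested positive, and mitosis genes had 0.88, with all 44 positive. None of these genes was called, and none was higher in all 6 injured libraries than in both naive ones, where 2.43% of all genes were. Mki67, the standard marker of dividing cells, had 2.29 and 23.1 FPKM in CCI_2dpi, 47.9 and 6.06 in CCI_7dpi and 5.86 and 2.35 in SNI_7dpi, against 1.10 and 8.24 in naive libraries. High values came from CCI_2dpi replicate 2 and CCI_7dpi replicate 1, and naive replicate 2 exceeded the other 4 injured libraries. Kif11, a motor of the mitotic spindle, was also highest in these constriction libraries, with 1.54 and 13.5 FPKM in CCI_2dpi, 19.5 and 4.27 in CCI_7dpi and 3.03 and 1.16 in SNI_7dpi, against 0.427 and 3.98 in naive libraries (1.10 ± 0.73). Mcm6, a subunit of the replicative helicase, had 41.5 and 47.1 FPKM in CCI_2dpi, 60.3 and 16.6 in CCI_7dpi and 13 and 10.8 in SNI_7dpi, against 7.33 and 15 in naive libraries (1.21 ± 0.43). In Mcm6 all 4 constriction libraries were above both naive libraries and both SNI libraries lay between them.

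Over the mitosis list, mean log2(FPKM + 1) was 4.68 in CCI_2dpi replicate 2 and 5.02 in CCI_7dpi replicate 1, against 1.79 to 2.65 in the other 4 injured libraries and 1.497 and 2.949 in naive replicates 1 and 2. Without these 2 constriction libraries, an alternative chosen after seeing the data, the median was 0.05 for mitosis and 0.29 for replication genes. Leaving out CCI_2dpi replicate 2 or CCI_7dpi replicate 1 alone gave 0.40 and 0.50 for mitosis genes. Without naive replicate 1 the mitosis median was 0.18, and without naive replicate 2 it was 1.57. For replication genes the median was 0.42 without naive replicate 1 and 0.47 without CCI_7dpi replicate 1. In SNI_7dpi the medians were -0.00061 for replication and 0.0023 for mitosis genes, with 19 of 39 and 23 of 44 positive, where 49.5% of all genes were.

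**Figure D4:**
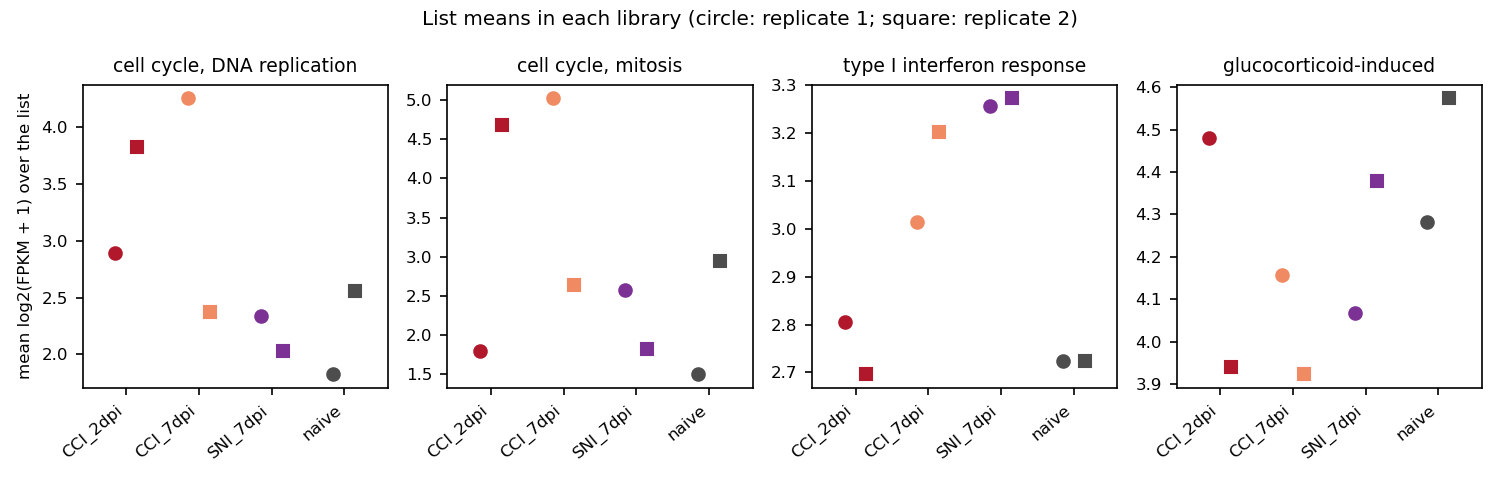
Mean log2(FPKM + 1) over the tested genes of 4 lists (vertical axes, which do not start at 0) in each library by group (horizontal axes), with circles for replicate 1 and squares for replicate 2. The mitosis means are 4.68 in CCI_2dpi replicate 2 and 5.02 in CCI_7dpi replicate 1 and at most 2.95 elsewhere, and the interferon means are highest in SNI_7dpi.

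The promoters of Mcm6 and Kif11 are shown because they hold matches to elements of the replication and mitosis programmes. Each is the 250 bases before the gene start (RefSeq, GRCm38.p6) on the gene's own strand, with the searched motif in capitals as it reads on that strand. Mcm6, on the minus strand (chr1:128359706-128359955), holds 2 matches to TTTGGCGC, 1 of 2 E2F forms searched, and Kif11, on the plus strand (chr19:37376132-37376381), holds 1 match to the CHR element TTTGAA, on its opposite strand.
Mcm6: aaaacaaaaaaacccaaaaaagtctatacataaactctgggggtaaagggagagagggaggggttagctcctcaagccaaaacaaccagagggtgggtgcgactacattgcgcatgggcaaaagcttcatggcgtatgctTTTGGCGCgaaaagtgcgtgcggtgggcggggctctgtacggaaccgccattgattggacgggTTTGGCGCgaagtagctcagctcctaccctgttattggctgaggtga
Kif11: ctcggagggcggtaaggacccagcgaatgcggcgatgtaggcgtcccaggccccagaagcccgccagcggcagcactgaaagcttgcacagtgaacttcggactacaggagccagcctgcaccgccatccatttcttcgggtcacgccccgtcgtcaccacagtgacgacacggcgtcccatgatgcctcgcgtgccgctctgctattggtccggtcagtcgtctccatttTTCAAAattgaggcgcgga
The E2F forms TTTCCCGC and TTTGGCGC were found in 6 of 31 replication promoters, 1.35% of all 27025 promoters and 2.74% of those of tested genes. TTTGAA was found in 13 of 36 mitosis promoters, 16.3% of all promoters and 10.5% of those of tested genes. Both strands were searched, and neither motif contains the other.

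Glucocorticoid-induced and immediate early genes had the lowest list medians. Glucocorticoids, the stress hormones, act through a receptor that switches on genes such as Tsc22d3 and Fkbp5, and immediate early genes answer quickly to many stimuli. The glucocorticoid list had a median of -0.20 over 20 tested genes, with 6 positive. Sult1a1, Tsc22d3, Fkbp5 and Ddit4 were lower in all 6 injured libraries (20% of the list, where 0.981% of all genes were). These 4 were already among the lower genes with the lowest p, and the list was written with earlier results of these data known. Their share is therefore no independent support. The glucocorticoid median was -0.14 in CCI_2dpi, -0.35 in CCI_7dpi and -0.14 in SNI_7dpi. In 4 of 6 injured libraries the mean log2(FPKM + 1) over this list was below both naive libraries. A palindromic glucocorticoid response element (AGAACA, any 3 bases, TGTTCT) was found in 0 of 19 promoters of the list and in 1 of 27025 promoters in all. It was also found in 0 of the 8136 promoters of tested genes. A motif this rare cannot tell the list from other genes.

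The immediate early list had a median of -0.21 over 22 tested genes, with 7 positive, and 5 were lower in all 6 injured libraries (22.7%, against 0.981% of all genes): Jun, Zfp36, Btg2, Fos and Egr1. Jun, a subunit of the transcription factor AP-1, had 58.2 and 31.7 FPKM in CCI_2dpi, 43.9 and 26.7 in CCI_7dpi and 46.8 and 37.0 in SNI_7dpi, against 70.9 and 73.0 in naive libraries (-0.85 ± 0.28). Zfp36, which destabilises cytokine mRNA, had 27.3, 39.1 and 48.8 FPKM as the lowest, median and highest injured value, against 62.7 and 52.6 in naive libraries (-0.58 ± 0.26). Fos averaged 1.405 FPKM in injured and 3.29 in naive libraries, and Egr1 averaged 1.14 FPKM in injured and 2.78 in naive libraries. Against all 9 controls the immediate early median was 0.06 and the glucocorticoid median -0.23, and the difference of Zfp36 turned to 0.10. The glucocorticoid-induced gene Fkbp5 also turned positive there, and so did Tsc22d3 in SNI_7dpi. For both of these genes the naive libraries lay above all 7 saline libraries.

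**Figure D5:**
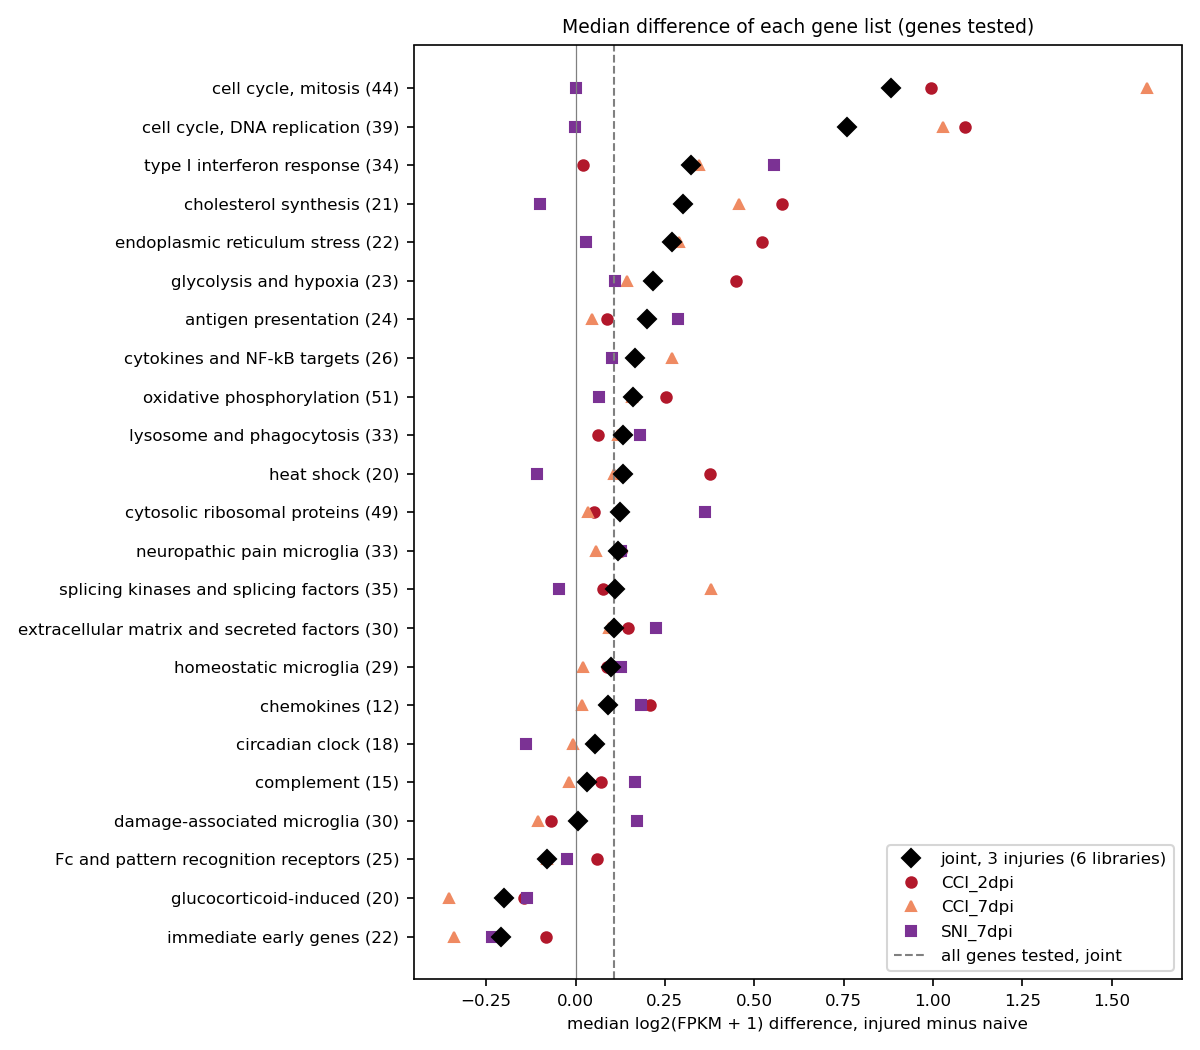
Median difference in log2(FPKM + 1), injured minus naive (horizontal axis), of 23 gene lists (vertical axis, with the number of genes tested). Diamonds are the joint difference and other symbols single injuries, and the dashed line marks all genes tested, at 0.11. The cell cycle lists are far right in both constriction groups and at 0 in SNI_7dpi.

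Homeostatic microglial genes had a median close to that of all genes, 0.10 over 29 tested, with 18 positive, against 0.11, and it was -0.03 with median-ratio scaling. Of the 29, 4 were higher in all 6 injured libraries (13.8%, against 2.43% of all genes). Gpr84 is among them and is also counted in the neuropathic pain list, so this share does not rest on homeostatic genes alone. Gpr84, a receptor for fatty acids that is induced in inflammation, had 164 and 87.0 FPKM in CCI_2dpi, 96.8 and 62.9 in CCI_7dpi and 59.2 and 73.9 in SNI_7dpi, against 39.2 and 53.9 in naive libraries (0.87 ± 0.29). The extracellular matrix gene Olfml3 had 1630 and 1696 FPKM in CCI_2dpi, 1827 and 1789 in CCI_7dpi and 1300 and 1800 in SNI_7dpi, against 1156 and 1172 in naive libraries (0.51 ± 0.21). Bin1 and Fcrls were the others of the list that were higher in all 6 injured libraries, with joint differences of 0.40 and 0.31.

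Damage-associated genes, which microglia raise around dying neurons and plaques through TREM2, had a median of 0.01 over 30 tested, with 16 positive. Cst7, the gene of cystatin F, had 10.8 and 24.5 FPKM in CCI_2dpi, 21.9 and 14.4 in CCI_7dpi and 16.7 and 17.6 in SNI_7dpi, against 9.04 and 10.6 in naive libraries (0.75 ± 0.30). The lowest injured value lay next to the naive ones. Itgax, Ctsz and Cd52 were also higher in all 6 (with Cst7, 13.3% of the list, against 2.43% of all genes). Spp1 was lower in all 6 (3.33%, against 0.981% of all genes). Against the 9 controls the difference of Cd52 turned to -0.45. Trem2 itself had 425 to 676 FPKM in injured and 518 and 499 in naive libraries, and Apoe had 441 to 1854 in injured and 1092 and 1131 in naive libraries.

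Genes tied to neuropathic pain in microglia had a median of 0.12 over 33 tested, near that of all genes, with 22 positive. Ccl2, Gpr84, Aif1 and Irf8 were the 4 higher in all 6 injured libraries (12.1%, against 2.43% of all genes). Aif1, a calcium-binding marker of microglia known as Iba1, had a joint difference of 0.37, and -0.14 against the 9 controls. Irf8, a transcription factor that drives reactive microglial programmes, had 176 and 128 FPKM in CCI_2dpi, 126 and 149 in CCI_7dpi and 134 and 144 in SNI_7dpi, against 94.9 and 126 in naive libraries, so the lowest injured value was next to the higher naive one (0.37 ± 0.21). Its target Irf5 had 101 to 173 FPKM in injured and 104 and 140 in naive libraries. The ATP-gated channel genes P2rx4 and P2rx7 had 28.9 to 50.5 and 32.5 to 61.5 FPKM in injured libraries, against 35.7 and 43.9 and 38.5 and 41.3 in naive libraries, with joint differences of 0.02 ± 0.24 and 0.05 ± 0.25. Il1b had 0.966 to 4.13 FPKM in injured and 1.21 and 2.32 in naive libraries, and Tnf had 0.451 to 2.84 in injured and 1.42 and 1.47 in naive libraries.

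Chemokine genes had a median of 0.09 over 12 tested, with 7 positive, and Ccl2, Cxcl10 and Cxcl16 were higher in all 6 injured libraries (25%, against 2.43% of all genes). Ccl12, the mouse partner of Ccl2, had 633 and 238 FPKM in CCI_2dpi, 287 and 103 in CCI_7dpi and 112 and 77.0 in SNI_7dpi, against 90.8 and 126 in naive libraries, with both CCI_2dpi libraries above naive, SNI_7dpi replicate 1 between the naive libraries and SNI_7dpi replicate 2 below both. In the list of cytokines and NF-kB targets (median 0.17, 19 of 26 positive), Icam1 and Tgfb1 were higher in all 6 (7.69%, against 2.43% of all genes). Il1r2, the decoy receptor of interleukin-1, had 2.81 to 15.9 FPKM in injured and 31.9 and 12 in naive libraries (-1.57 ± 0.43), and overlapped through SNI_7dpi replicate 2. Fc and pattern recognition receptors had a median of -0.08 over 25 tested, with 11 positive. Fcgr3, an activating IgG receptor gene, had 280 to 426 FPKM in injured and 480 and 512 in naive libraries (-0.49 ± 0.21), and Fcgr4 and Tlr7 were also lower in all 6 (12% with Fcgr3, against 0.981% of all genes). Tlr7 turned to 0.32 against the 9 controls. Tlr4, the receptor for bacterial lipopolysaccharide, had 17.6 to 33.8 FPKM in injured and 32.6 and 23.9 in naive libraries. Complement genes had a median of 0.03 over 15 tested, with 10 positive.

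Lysosome and phagocytosis genes had a median of 0.13 over 33 tested, with 23 positive, and 0.0019 with median-ratio scaling. Gusb, Gas6, Grn and Ctsz were among the 5 higher in all 6 injured libraries (15.2%, against 2.43% of all genes). Gas6, a bridge between dying cells and the phagocytic receptors Axl and Mertk, had 84.8, 99.3 and 187 FPKM as the lowest, median and highest injured value, against 62.0 and 76.7 in naive libraries (0.63 ± 0.28). Grn, the progranulin gene, had 717 and 755 FPKM in CCI_2dpi, 718 and 1137 in CCI_7dpi and 981 and 1070 in SNI_7dpi, against 674 and 646 in naive libraries (0.41 ± 0.22). Extracellular matrix and secreted factor genes had a median of 0.11 over 30 tested, equal to the background. Rspo1, Serpinf1, Lgals3bp, Gas6 and Mmp14 were higher in all 6 (16.7%, against 2.43% of all genes). Spp1 was lower in all 6 (3.33%, against 0.981% of all genes). Lgals3bp, a galectin-binding glycoprotein gene, had 89.0 and 90.6 FPKM in CCI_2dpi, 96.1 and 161 in CCI_7dpi and 133 and 154 in SNI_7dpi, against 88.8 and 70.9 in naive libraries, and CCI_2dpi replicate 1 nearly met the higher naive value.

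Cholesterol synthesis genes had a median of 0.30 over 21 tested, with 20 positive. None was higher in all 6 injured libraries, where 2.43% of all genes were. The median was 0.58 in CCI_2dpi and 0.46 in CCI_7dpi, with all 21 genes positive in each (68.9% and 72.7% of all genes were), and -0.10 in SNI_7dpi, with 5 positive. The 2 CCI_7dpi libraries differed: the mean log2(FPKM + 1) over the list was 3.433 in replicate 1 and 2.411 in replicate 2. It was 2.437 and 2.492 in naive libraries. Of the 6 injured libraries, 3 had a list mean above both naive libraries and 3 below both. Sqle, the squalene epoxidase gene, had 8.19 and 9.27 FPKM in CCI_2dpi, 12.7 and 2.56 in CCI_7dpi and 1.82 and 2.10 in SNI_7dpi, against 2.16 and 2.29 in naive libraries. For Sqle, all 4 constriction libraries were above naive and both SNI libraries below. Endoplasmic reticulum stress genes had medians of 0.52 in CCI_2dpi, 0.29 in CCI_7dpi and 0.03 in SNI_7dpi (0.27 joint, 19 of 22 positive). Hsp90b1, an endoplasmic reticulum chaperone gene, had 287 and 268 FPKM in CCI_2dpi, 297 and 199 in CCI_7dpi and 175 and 181 in SNI_7dpi, against 126 and 206 in naive libraries. Heat shock genes had a joint median of 0.13 over 20 tested, and Hspa1b stood at 41.3 FPKM in CCI_2dpi replicate 1 and 1.84 to 5.72 in the other 5 injured libraries, against 16.6 and 25.9 in naive libraries. Glycolysis genes had a median of 0.22 (21 of 23 positive) and oxidative phosphorylation genes 0.16 (42 of 51 positive). Cytosolic ribosomal protein genes had 0.12 (41 of 49 positive), with 0.36 in SNI_7dpi and 0.05 and 0.04 in CCI_2dpi and CCI_7dpi, and the joint median was -0.0072 with median-ratio scaling. Circadian clock genes had a median of 0.05 and splicing genes 0.11.

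Each injury was also set against the same 2 naive libraries, which the 3 comparisons share. None called a gene (limma, adjusted p under 0.05; 0% called in each). Unadjusted p-values under 0.05 numbered 396 in CCI_2dpi (3.77%), 233 in CCI_7dpi (2.22%) and 126 in SNI_7dpi (1.20%), against 525 expected by chance. In CCI_2dpi 24.2% of genes were higher in both libraries than in both naive libraries and 7.06% lower. In CCI_7dpi 24% were higher and 5.45% lower, and in SNI_7dpi 8.68% were higher and 14% lower. Separation by chance is more frequent with 2 libraries against 2, and its share was not counted here either. Genes not yet described that led single injuries included Il4i1, Npnt and Ccnc. Npnt, an extracellular matrix ligand of integrins, had 27.0 and 32.6 FPKM in SNI_7dpi, against 15.1 and 10.4 in naive libraries (1.18 ± 0.36), and 13.4 to 42.2 in the constriction libraries. Ccnc, the cyclin of the Mediator kinase module, had 3.64 and 2.44 FPKM in SNI_7dpi, against 7.93 and 6.03 in naive libraries (-0.99 ± 0.30), and 5.57 to 7.98 in the constriction libraries. Snx29 had 4.96 and 3.47 FPKM in CCI_2dpi, against 10.8 and 15.5 in naive libraries (-1.43 ± 0.31).

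Several of the lowest p-values came from genes listed at exactly 0 in whole groups, and such a 0 in an FPKM table can be a failed estimate. Usp16, a deubiquitinase gene, was listed at 0 in both CCI_2dpi libraries, against 4.31 and 8.89 FPKM in naive, and had 4.47 to 9.35 FPKM in the other 4 injured libraries (adjusted p = 0.132 in CCI_2dpi, limma). Cog5, a Golgi trafficking gene, had 4.34 and 7.57 FPKM in CCI_7dpi and 4.35 and 3.42 in CCI_2dpi and was listed at 0 in both naive and both SNI_7dpi libraries (adjusted p = 0.0989 in CCI_7dpi, limma). Eif2a, a translation initiation factor gene, had 12.4 to 18.0 FPKM in 5 injured libraries and was listed at 0 in SNI_7dpi replicate 2 and in both naive libraries. Il4i1, an amino acid oxidase gene, had 5.49 and 7.53 FPKM in SNI_7dpi and 5.97 in CCI_7dpi replicate 2 and was listed at 0 in the other 5 libraries.

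The 3 injuries were then compared with each other with no control in the contrast. No gene passed (limma moderated F-test, adjusted p under 0.05; 0% called), and 247 had an unadjusted p under 0.05 (2.35%). The 3 lowest adjusted p-values, all 0.0706 (limma), belonged to Usp16, Fbxl12 and Cog5, each listed at 0 in at least 1 whole group. Among genes without such values, Slc7a5, a transporter of large neutral amino acids, had 95.1 and 64.7 FPKM in CCI_2dpi, 63.2 and 38.2 in CCI_7dpi and 22.1 and 34.9 in SNI_7dpi, against 30.4 and 36.7 in naive libraries. Irf7, the master regulator of interferon genes, had 5.59 and 5.76 FPKM in CCI_2dpi, 11.8 and 12.1 in CCI_7dpi and 14.5 and 10.8 in SNI_7dpi, against 7.50 and 8.89 in naive libraries. The CCI_2dpi libraries lay below naive and the others above. Idh3a, a subunit of the Krebs cycle isocitrate dehydrogenase, had 41.1 and 28.4 FPKM in CCI_2dpi, 28.5 and 22.7 in CCI_7dpi and 12.1 and 15.3 in SNI_7dpi, against 17.8 and 18.2 in naive libraries. Hnrnpa1, Ptges3, Cbfb and 2410006H16Rik completed the 10 lowest. The adjusted p of these 7 was 1 (limma).

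Apart from the B cell list, of which only Cd79b and Blnk were tested, no list of markers of another cell type had its mean level in all 6 injured libraries above or below both naive libraries. In bulk samples, fewer cells of a type and less RNA per cell cannot be told apart. Neutrophil genes were abundant, with a summed level of the 19 measured of 3283 to 9962 FPKM in injured and 6143 to 9229 in naive libraries. Over the 19 neutrophil genes tested the median joint difference was 0.04, with 10 positive and 9 negative. S100a8, a neutrophil calcium-binding protein gene and 1 of the negative ones, had 700 to 2636 FPKM in injured and 3409 and 1642 in naive libraries. The 16 monocyte markers summed to 245 to 616 FPKM in injured and 469 to 619 in naive libraries, and the 16 border macrophage markers to 52.8 to 79.2 in injured and 71.9 to 90.4 in naive libraries. Astrocyte markers summed to 26.7 to 154 FPKM in injured and 55.9 to 87.9 in naive libraries, and neuronal markers to 4.87 to 107 in injured and 10.9 to 18.3 in naive libraries. CCI_2dpi replicate 1 was the high library for neurons, with 38.8 FPKM of the neuronal RNA Snhg11 against at most 3.92 in any other of the 8. No oligodendrocyte precursor or mural cell marker reached 1 FPKM in 2 libraries. Tagln, Myh11 and Des of the mural list, Pax5 of the B cell list and Nefh of the neuronal list were listed at 0 in all 8.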

How the data were processed

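The 8 libraries were made from total RNA of CD11b-selected cells by Smart-Seq2 (full-length cDNA) and Nextera XT, per the labels' protocols. The authors deposited 1 table of FPKM values for 30 libraries. The build mm10, featureCounts 1.4.6, HISAT2 2.0.5.1, DESeq2 (no version given) and Cufflinks 2.2.1 are named in the submitters' processing notes, and which of them made the FPKM values is not given in the sources used here. FPKM values carry no depth and share their total within a library, so a few abundant genes can shift the rest.

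Of 24888 rows, 826 with 281 repeated symbols were left out. The 10501 genes that reached 1 FPKM in 2 or more of the 8 libraries were tested on log2(FPKM + 1) with limma 3.58.1 in R 4.3.3 (intensity trend, two-sided moderated tests, 4 group means, Benjamini-Hochberg adjusted p under 0.05). The procedure was tested on simulated data. Members and gene lists were chosen with earlier results of these data known, and lists are described by counts and medians with no set test. Named genes were those with the lowest p among genes with no overlap between injured and naive libraries and a mean of at least 5 FPKM (15 each way jointly, 5 each way per injury), the 10 lowest of the F-test, up to 5 per list and a few fixed microglial genes. Exceptions are stated where they occur, and a few genes of the rule or the lists are not reported here. Promoter sequences are RefSeq's (GRCm38.p6). The closing text gives the alternatives tried: pseudocount, filters, normalizations, array weights, a replicate block, other control sets and left-out libraries. In groups of 6, 66 results were checked for a library far from the rest, and 0 were found. That check did not cover every gene, and 2 libraries that deviate together can escape it. CCI_2dpi replicate 2 and CCI_7dpi replicate 1 lay together above the other injured libraries in the mitosis list. CCI_2dpi replicate 1 stood apart from the other injured libraries in Hspa1b and Snhg11.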

Additional observations from a re-analysis of the deposited data

How the results depend on the processing

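With 2 naive libraries, differences under about 1 log2 unit were mostly not detectable, and depth is unknown. The 5 comparisons gave 0 calls in the main analysis, with a filter at 5 FPKM, median-ratio scaling, array weights, all 30 libraries in the fit, and genes listed at 0 left out (chosen after seeing the data). The replicate numbers did not pair the samples (correlations of deviations -0.344 to 0.102), and a replicate block also gave 0 calls in all 5.

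Other settings gave a few calls, mostly of genes listed at 0 in some libraries. CCI_2dpi against naive had 3 calls with a pseudocount of 0.1 (Fbxl12, Sik2, Usp16), 3 on a common sum and 2 with quantile normalization, and the differences among injuries had 3, 2 and 2 in the same order. A single mean for the 6 injured libraries gave 1 joint call, Tmod1. Leaving out 1 library gave 0 to 1 calls in the joint and each single comparison and 0 to 7 among injuries. Without both CCI_2dpi replicate 2 and CCI_7dpi replicate 1 (chosen after seeing the data) there were 2 calls in CCI_7dpi and 2 among injuries. The cause was not tested.

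Genes higher in all 6 injured libraries numbered 133 on a common sum and genes lower in all 6 numbered 239, against 255 and 103. The lower count was 209 with no filter, 61 at 5 FPKM, 237 with median-ratio scaling and 270 with quantile normalization. Leaving out 1 library gave 275 to 3229 higher and 109 to 734 lower genes, and fewer libraries have to agree in these counts. The highest were without naive replicate 2 (3229 and 734), and without naive replicate 1 they were 436 and 677. Without the 2 constriction libraries they were 513 and 185.

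Against all 9 controls the joint calls were 1267, CCI_2dpi had 3 (Pigb, Sik2, Usp16) and the differences among injuries 1 (Usp16), with 53 genes higher and 13 lower than every control. Named genes that reversed there were 2310039H08Rik (-0.19), Fkbp5 (0.50 jointly, 0.28 in CCI_2dpi, 0.51 in CCI_7dpi), Jun (0.34 jointly, 0.14 in CCI_7dpi), Rcan1 (0.14), Ppp1r21 (0.040) and Tsc22d3 in SNI_7dpi (0.0027). Of the other list members with no overlap between injured and naive libraries, Aif1 (-0.14), Cd52 (-0.45), H2-DMa (-0.20), Psmb9 (-0.47), Rpl8 (-0.0077), Tlr7 (0.32) and Zfp36 (0.10) reversed there. No other gene named for not overlapping, in a list, jointly or in 1 injury, changed direction under any alternative run. Genes whose ranges overlapped were not followed.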
